A study of Mus musculus with 24 samples.

Results

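The genes described here are 8 members of the Notch pathway, of 55414 gene lines counted in mouse dendritic cells (DCs) treated with AZD5582. They are the ligand genes Dll4 (ENSMUSG00000027314), Jag1 (ENSMUSG00000027276) and Jag2 (ENSMUSG00000002799), the receptor genes Notch1 (ENSMUSG00000026923) and Notch2 (ENSMUSG00000027878), the gene of the nuclear partner Rbpj (ENSMUSG00000039191), and the neuralized genes Neurl1a (ENSMUSG00000006435) and Neurl3 (ENSMUSG00000047180). They were chosen by name. Dll4, Neurl1a and Neurl3 were picked because they responded to AZD5582 in these libraries, so their values around that treatment are given as a description with no test. The other 5 were tested within fits across all genes.

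Notch ligands are membrane proteins that bind Notch receptors on a neighbouring cell. Binding lets an ADAM protease and then the gamma-secretase complex cut the receptor, and the freed intracellular part enters the nucleus and joins RBPJ to switch on target genes such as those of the Hes and Hey families. Ubiquitin ligases of the mindbomb and neuralized families act on the ligand in the cell that sends the signal, and fringe enzymes add sugars to the receptor that alter which ligand it favours. In DCs, ligands such as DLL4 are known as signals to T cells, while NOTCH2 with RBPJ is known for its part in the development of splenic DC subsets.

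The cells were grown from bone marrow. Donor mice were C57BL/6JRj, either Cas9-EGFP or WT, and the labels do not tie a genotype to a library. One kind of culture had GM-CSF alone, a myeloid growth factor, at 20 ng/ml and was used at day 8 (GM cultures, which the labels call moDC). The other had the same GM-CSF dose plus FLT3L, which expands DC precursors, at 200 ng/ml and was used at day 16 (FL cultures, labelled cDC1). RNA was taken before treatment (t0) or 24 h after adding either DMSO, the solvent, or AZD5582, a small molecule that blocks inhibitor of apoptosis proteins. GM cultures received 0.1, 0.5 or 1 µM and FL cultures 0.05 µM. Each of the 8 groups had 3 libraries, which the series calls biological replicates. The GM libraries carry a single culture number, DC105, with replicates 1 to 3, whereas the FL libraries come from cultures 91, 94 and 95. Nothing states that the GM replicates came from separate animals, so their p-values measure the spread between these libraries only.

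The 24 libraries held 27012555 to 85820558 counts on genes, with 18178 to 20534 genes detected. All 10 genes of a list of general DC markers averaged at least 1 CPM in every group, where CPM is the count scaled to 1000000 gene counts per library. Xcr1, the chemokine receptor that defines type 1 conventional DCs, averaged 240.8 CPM in FL cultures at t0 and 18.7 after 24 h in DMSO, but 0.153 and 0.00823 in GM cultures. In FL cultures at 0.05 µM it averaged 2.03 CPM. The list of 8 genes of these DCs was mixed with DMSO. Naaa (152.7 against 388.5 CPM) and Ppt1 (66.36 against 83.83 CPM) averaged lower in FL than in GM cultures. The other genes of that list averaged higher in FL cultures. The summed level of 12 monocyte and macrophage genes was 28430 to 34350 CPM in GM libraries with DMSO and 3179 to 4782 at 1 µM, and was 832.7 to 1878 in FL cultures with DMSO and 289.9 to 900.6 with AZD5582. FL culture 91 stood apart after 24 h: its DMSO library lay at 87.1 on the first principal component against -46.0 and -28.0 for cultures 94 and 95, and its AZD5582 library at 138.7 against 30.5 and 78.7. Mitochondrial genes took 8.04% of the counts in GM replicate 1 at 1 µM, and 3.96% and 4.27% in replicates 2 and 3. In bulk RNA, fewer cells that express a gene and less of its RNA per cell cannot be told apart.

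The region upstream of the start site is shown for the 4 genes of this set that hold a match to the NF-kB consensus there, since antagonists of inhibitor of apoptosis proteins are known to release non-canonical NF-kB signalling. Sequences are the 250 bases before the start site from RefSeq, assembly GRCm38.p6, an earlier build than the GRCm39 of the deposited counts, and are written 5′ to 3′ on the strand of the gene. Capitals mark the match. All 8 genes had an entry.
Dll4 (chr2:119325534-119325783, plus strand): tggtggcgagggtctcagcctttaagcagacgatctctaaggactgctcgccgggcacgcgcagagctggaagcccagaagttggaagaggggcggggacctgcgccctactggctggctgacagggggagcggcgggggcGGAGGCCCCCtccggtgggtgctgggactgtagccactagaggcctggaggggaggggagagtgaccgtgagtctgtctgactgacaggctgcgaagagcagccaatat
Notch2 (chr3:98013288-98013537, plus strand): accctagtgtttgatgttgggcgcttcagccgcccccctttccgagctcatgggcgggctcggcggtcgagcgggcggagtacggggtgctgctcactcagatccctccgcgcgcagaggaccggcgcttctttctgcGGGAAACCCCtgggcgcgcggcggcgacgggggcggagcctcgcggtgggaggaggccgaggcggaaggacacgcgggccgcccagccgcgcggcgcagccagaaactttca
Neurl1a (chr19:47178570-47178819, plus strand): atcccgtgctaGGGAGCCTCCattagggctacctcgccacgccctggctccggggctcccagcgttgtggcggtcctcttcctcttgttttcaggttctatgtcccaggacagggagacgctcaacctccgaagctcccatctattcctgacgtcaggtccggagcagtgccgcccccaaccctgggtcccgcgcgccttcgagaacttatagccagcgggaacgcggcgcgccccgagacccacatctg
Neurl3 (chr1:36273426-36273675, minus strand): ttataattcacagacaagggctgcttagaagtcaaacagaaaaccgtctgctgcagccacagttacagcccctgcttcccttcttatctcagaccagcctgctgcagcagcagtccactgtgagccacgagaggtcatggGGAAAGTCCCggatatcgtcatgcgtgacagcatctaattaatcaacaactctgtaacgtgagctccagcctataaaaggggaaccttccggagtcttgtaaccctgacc
The match began 109 bases before the start in Dll4 and 110 in Neurl3, both read on the opposite strand. In Notch2 it began 112 bases before the start and matched on both strands, and in Neurl1a it began 239 bases before the start on the gene's own strand. No such match was found in the windows of Jag1, Jag2, Notch1 or Rbpj. Of 32851 mouse promoter windows of this length, 7.25% held the NF-kB consensus on either strand. The RBPJ core motif GTGGGAA, searched on both strands, was in none of the 8 genes' windows and in 5.42% of all windows. The motif TATAAA was found in Neurl3 alone of the 8, beginning 39 bases before its start, and in 12.4% of all windows. Genes higher and genes lower with AZD5582 both include some with a match, and a match is a description of these letters, not a binding site.

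Among the ligand genes, Dll4 was close to absent without AZD5582 and present in every library with it. In GM cultures its level was 0.193, 0.0181 and 0.0183 CPM at t0 in replicates 1, 2 and 3, from 12, 1 and 1 counts. In DMSO it was 0.156, 0.370 and 0.353 CPM. With AZD5582 it stood at 35.4, 27.1 and 36.5 CPM (0.1 µM), 59.0, 53.8 and 71.5 CPM (0.5 µM) and 61.6, 58.9 and 83.03 CPM (1 µM). Every treated library was therefore above every untreated one, and the libraries at 0.1 µM lay below all those at the higher doses. In FL cultures 91, 94 and 95 the level was 0.187, 0.499 and 0.316 CPM at t0, 0.809, 0.370 and 1.36 in DMSO, and 24.01, 17.9 and 41.5 at 0.05 µM.

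Fitted against DMSO, the Dll4 difference in GM cultures was 6.94 ± 0.30, 7.90 ± 0.31 and 8.11 ± 0.31 on the log2 scale (± SE, n = 3 per group) at 0.1, 0.5 and 1 µM, comparisons that share the DMSO libraries. In FL cultures at 0.05 µM it was 5.19 ± 0.59. The order of the group means ran from GM cultures at 1 and 0.5 µM, whose ranges overlapped, to GM cultures at 0.1 µM and FL cultures at 0.05 µM, which overlapped too, and then to the 4 untreated groups, each of which overlapped its neighbour. After 24 h in DMSO the Dll4 level differed from t0 by 1.95 ± 0.60 in GM cultures, a value that rests on a few counts and was 3.97 without t0 replicate 1. The lncRNA gene Gm14207 overlaps the start of Dll4 on the opposite strand in the GENCODE annotation and averaged 0.132 CPM in GM cultures with DMSO and 5.05, 10.3 and 11.1 CPM at the 3 doses. Whether counting used strand is unstated here, so how reads in the overlap were divided cannot be told.

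**Figure D1:**
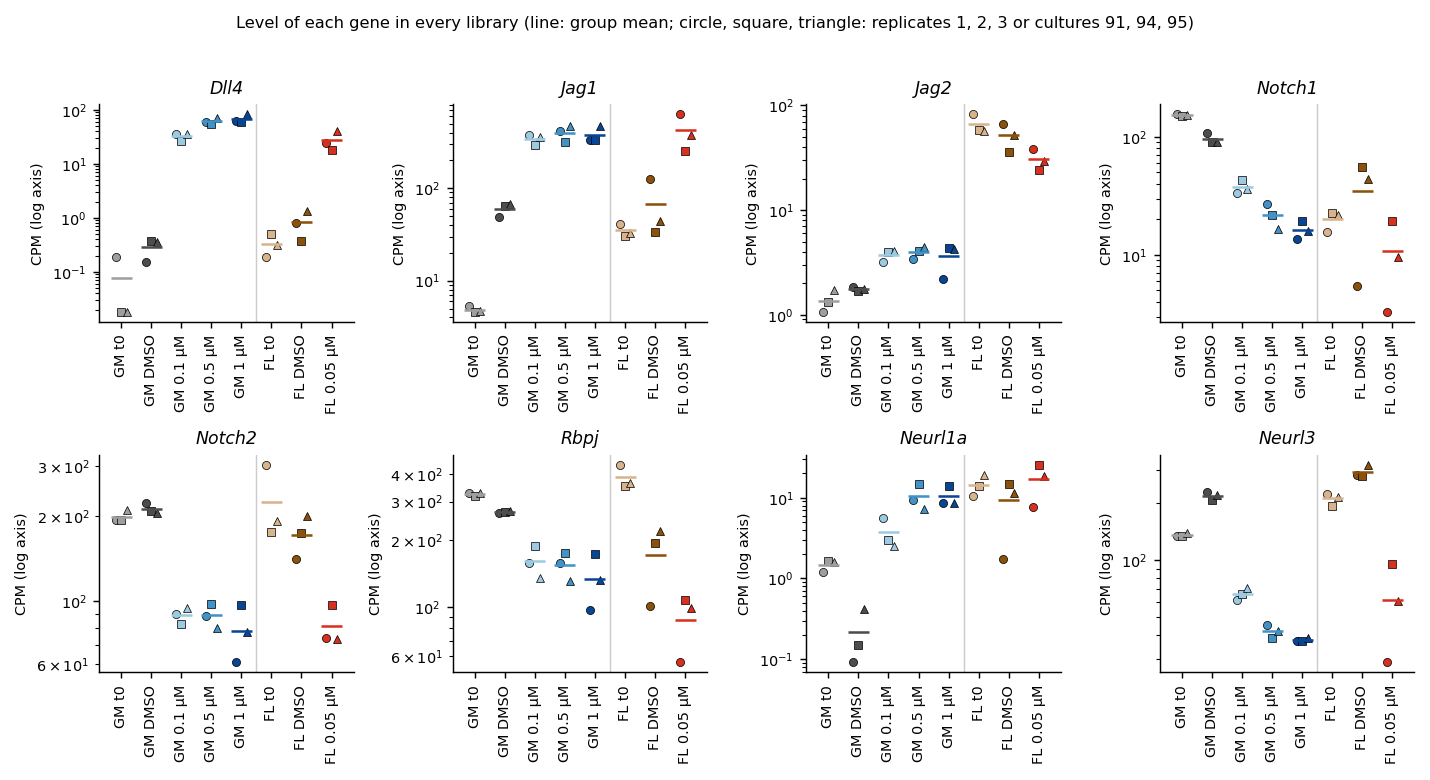
Level of each of the 8 genes in every library, in CPM on a log axis, by group; points are libraries (circle, square and triangle for replicates 1, 2 and 3 or cultures 91, 94 and 95) and lines are group means. Dll4 lies at 1.36 CPM or lower in all untreated libraries and at 17.9 CPM or higher in all treated ones, whereas Notch2 and Neurl3 are lower in treated than in untreated libraries of each culture type.

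Jag1, the ligand that was already expressed in DMSO, rose at every AZD5582 dose in GM cultures. At t0 its level was 5.29, 4.58 and 4.75 CPM, and after 24 h in DMSO it was 48.8, 63.5 and 68.2 CPM. With AZD5582 it reached 377.3, 290.7 and 354.3 CPM (0.1 µM), 416.2, 320.3 and 466.8 (0.5 µM) and 328.7, 330.8 and 471.2 (1 µM). The t0, DMSO and treated libraries formed 3 separate ranges, while the 3 doses overlapped. Jag1 rose by 3.79 ± 0.18 from t0 to DMSO (log2 ± SE; adjusted p = 1.798e-11, edgeR quasi-likelihood test with Benjamini-Hochberg adjustment, as for all adjusted p-values of genes). Against DMSO it rose by 2.60 ± 0.16, 2.90 ± 0.17 and 2.87 ± 0.17 at the 3 doses, with adjusted p-values of 1.829e-09, 1.84e-10 and 1.436e-10.

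In FL cultures the Jag1 level was 41.6, 30.3 and 33.1 CPM at t0 in cultures 91, 94 and 95. In DMSO it was 124.9, 33.8 and 43.98 CPM, and at 0.05 µM it was 630.9, 254.2 and 381.6 CPM. All 3 treated libraries were above all 3 DMSO libraries, of which that of culture 91 was the highest. The difference of 2.72 ± 0.65 missed the threshold (adjusted p = 0.06592), but with the culture number as a block it was 2.90 ± 0.34 (adjusted p = 0.007848), and without the DMSO library of culture 91 it was 3.84 (adjusted p = 0.006959). From t0 to DMSO in FL cultures the difference was 1.19 ± 0.62 (adjusted p = 0.2372), and 0.11 without that library.

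Jag2 was a ligand gene of FL cultures before treatment. At t0 it stood at 1.06, 1.32 and 1.72 CPM in GM cultures and at 82.2, 58.7 and 57.4 CPM in FL cultures, with no overlap. This difference was 5.54 ± 0.35 on the log2 scale, a fold of 46.4 (adjusted p = 2.707e-10). In GM cultures the level was 1.83, 1.68 and 1.77 CPM in DMSO, 3.19, 3.98 and 4.06 (0.1 µM), 3.405, 4.02 and 4.445 (0.5 µM) and 2.21, 4.37 and 4.24 (1 µM). Every treated library was above the DMSO libraries, with replicate 1 lowest at each dose. Jag2 rose by 1.18 ± 0.22, 1.34 ± 0.22 and 1.24 ± 0.22 at the 3 doses (adjusted p = 0.0002856, 5.026e-05 and 0.0001095). In FL cultures it was 67.2, 35.7 and 52.1 CPM in DMSO and 38.3, 24.4 and 29.2 CPM at 0.05 µM. It was lower with AZD5582 in each of the 3 cultures, but the difference of -0.63 ± 0.37 missed the threshold (adjusted p = 0.4327). With the culture number as a block it was -0.58 ± 0.16 and missed it too (adjusted p = 0.0772).

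The receptor gene Notch1 fell with AZD5582 in GM cultures, and was the only one of the 5 tested members to change between 0.1 and 0.5 µM. Its level was 155, 151 and 154 CPM at t0 and 106.8, 90.8 and 89.7 CPM in DMSO. It was 33.7, 43.1 and 36.2 CPM (0.1 µM), 26.9, 21.6 and 16.7 (0.5 µM) and 13.6, 19.3 and 15.9 (1 µM). The ranges of t0, DMSO, 0.1 µM and 0.5 µM did not overlap, while those of 0.5 and 1 µM did. Notch1 fell by 0.51 ± 0.14 from t0 to DMSO (adjusted p = 0.004956). Against DMSO its log2 changes were -1.25 ± 0.14, -1.98 ± 0.14 and -2.34 ± 0.15 at the 3 doses (adjusted p = 1.178e-06, 2.519e-09 and 3.275e-10). From 0.1 to 0.5 µM it fell by 0.73 ± 0.14 (adjusted p = 0.002123), and from 0.5 to 1 µM the difference was -0.36 ± 0.14 (adjusted p = 0.8274).

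In a model of all 24 libraries, which takes a wider spread from the FL cultures, the Notch1 changes at 0.1 µM against DMSO (adjusted p = 0.05126), from t0 to DMSO (0.4553) and from 0.1 to 0.5 µM (0.6289) were not called. In FL cultures Notch1 was low and uneven, at 15.5, 22.5 and 21.8 CPM at t0, 5.43, 55.5 and 43.6 in DMSO, and 3.28, 19.5 and 9.65 at 0.05 µM. Culture 91 was lowest in each of these groups. The difference between 0.05 µM and DMSO was -1.49 ± 0.72 (adjusted p = 0.3318), and in cultures 94 and 95 alone it was -1.53 ± 0.27 (adjusted p = 0.01073). With the culture number as a block it was -1.40 ± 0.46 (adjusted p = 0.1181). At t0 Notch1 was lower in FL than in GM cultures by a fold of 8.13 (log2 -3.02 ± 0.51, adjusted p = 6.834e-05).

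Notch2, the other receptor gene, was lower in treated libraries of both culture types. In GM cultures it stood at 194, 193 and 210.0 CPM at t0, 222.6, 207.7 and 205.2 in DMSO, 89.9, 83.3 and 94.6 (0.1 µM), 88.3, 97.9 and 80.6 (0.5 µM) and 60.7, 96.7 and 77.5 (1 µM). All 9 treated libraries were below the DMSO libraries, and the doses overlapped. Notch2 changed by -1.15 ± 0.11, -1.09 ± 0.11 and -1.22 ± 0.11 (adjusted p = 1.533e-07, 1.279e-07 and 2.766e-08). In FL cultures it was 303.7, 175.9 and 192.3 CPM at t0, 141, 173.7 and 200.3 in DMSO, and 74.3, 96.7 and 73.3 at 0.05 µM. Treated and DMSO libraries of FL cultures did not overlap, with a difference of -0.91 ± 0.24 (adjusted p = 0.08249). With the culture number as a block the size and sign were the same and the adjusted p was 0.04485.

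Rbpj, whose product carries the Notch signal to DNA, fell at every dose in GM cultures. Its level there was 327, 318 and 329.5 CPM at t0, 265.7, 267.8 and 272.4 in DMSO, 158.7, 189.4 and 135 (0.1 µM), 157.5, 174.6 and 130.4 (0.5 µM) and 96.9, 172.8 and 132.1 (1 µM). Treated and DMSO libraries did not overlap, and the doses did. Against DMSO it changed by -0.64 ± 0.14, -0.64 ± 0.14 and -0.79 ± 0.14 (adjusted p = 0.001543, 0.001124 and 0.0001437). A processed copy, Rbpj-ps3, shares sequence with Rbpj, so the split of reads between them is uncertain; it averaged 8.56 CPM in DMSO and 2.86 at 1 µM.

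In FL cultures Rbpj was 440.8, 351.2 and 364.9 CPM at t0, 101, 195.6 and 221.1 in DMSO, and 56.04, 108 and 98.6 at 0.05 µM. It fell by 1.10 ± 0.26 over 24 h in DMSO (adjusted p = 0.03472), with no overlap between t0 and DMSO, and this call was lost on leaving out any single library of the comparison (adjusted p from 0.05092 to 0.1396). In cultures 94 and 95 alone the change was -0.79 ± 0.13 (adjusted p = 0.0141). Between 0.05 µM and DMSO the difference was -0.80 ± 0.25 (adjusted p = 0.1436), and in cultures 94 and 95 alone it was -0.75 ± 0.13 (adjusted p = 0.01019). With the culture number as a block it was -0.80 ± 0.24 (adjusted p = 0.09378). Without the DMSO library of culture 91 it was -0.93 (adjusted p = 0.03322). Rbpj was lower with AZD5582 in each of the 3 FL cultures.

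The neuralized genes, whose products are ubiquitin ligases, lay on opposite sides of DMSO in treated cells. Neurl1a in GM cultures was 1.19, 1.63 and 1.59 CPM at t0 and 0.0911, 0.148 and 0.420 in DMSO. It was 5.67, 3.04 and 2.51 CPM (0.1 µM), 9.50, 14.8 and 7.26 (0.5 µM) and 8.72, 14.1 and 8.64 (1 µM). The DMSO libraries lay below those at t0, and all treated libraries above both. Against DMSO the Neurl1a differences were 4.35 ± 0.48, 5.92 ± 0.48 and 5.96 ± 0.48 at the 3 doses, and from t0 to DMSO the difference was -2.73 ± 0.50. In FL cultures the gene was expressed without AZD5582, at 10.4, 14.03 and 19.1 CPM at t0, 1.76, 14.7 and 11.5 in DMSO and 7.72, 25.7 and 18.3 at 0.05 µM. The FL treated and DMSO ranges overlapped, although in each culture the treated library was higher, and the difference was 1.11 ± 0.60. With the culture number as a block it was 1.26 ± 0.38.

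Neurl3 was the more abundant neuralized gene of the pair in DMSO. In GM cultures it stood at 133.4, 133.6 and 138.2 CPM at t0, 228.4, 206.2 and 221.4 in DMSO, 61.8, 66.3 and 71.1 (0.1 µM), 45.5, 38.8 and 42.4 (0.5 µM) and 37.3, 37.2 and 38.8 (1 µM). The ranges of the 5 groups did not overlap, though the lowest library at 0.5 µM (38.83 CPM) and the highest at 1 µM (38.81 CPM) nearly met. Its differences from DMSO were -1.62, -2.21 and -2.30, each with an SE of 0.09. In FL cultures it was 224.2, 193.7 and 216.2 CPM at t0, 280.2, 277.5 and 318.5 in DMSO and 28.8, 95.6 and 60.8 at 0.05 µM, with no overlap between treated and DMSO libraries. The difference was -2.15 ± 0.33, with culture 91 the lowest of the treated libraries. In cultures 94 and 95 alone it was -1.69 ± 0.19.

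The 8 groups were also ordered by mean CPM. Jag1 was highest in the 4 treated groups, whose neighbours overlapped. FL and GM cultures with DMSO came next and overlapped, then FL t0 and last GM t0, each clear of the group before it. For Jag2 the 3 FL groups led and overlapped in turn, followed by the 3 treated GM groups and then GM DMSO and GM t0, which overlapped. Notch1 was highest at GM t0, then in GM DMSO, both clear of the rest, and the other 6 groups overlapped from one to the next. Notch2 had the 4 untreated groups above the 4 treated ones, with overlap inside each set. Rbpj ran from FL t0 to GM t0 to GM DMSO without overlap in CPM, and the 5 groups below overlapped in turn. The fits, which scale libraries differently, did not call FL against GM cultures at t0 (0.18 ± 0.20, adjusted p = 0.5166). Nor did they call GM DMSO against t0 (-0.11 ± 0.14, adjusted p = 0.5594). Neurl1a was lowest in GM DMSO and next lowest at GM t0, and the 6 groups above overlapped in turn. Neurl3 was highest in FL DMSO and lowest in GM cultures at 1 µM, with all 4 untreated groups above the treated ones.

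Of the 5 members not picked for their response, all 5 were called at each of the 3 GM doses, the 2 Jagged ligand genes higher and Notch1, Notch2 and Rbpj lower. Among all 16152 genes tested, 40.3% were called at 0.1 µM (19.9% higher and 20.3% lower), 53.5% at 0.5 µM (25.8% and 27.7%) and 55.1% at 1 µM (26.9% and 28.2%), so a call at these doses was common. Without replicate 1 at 1 µM, the library with the high mitochondrial share, all 5 were called at that dose with the same direction. The step from 0.5 to 1 µM called no member and none of the 16152 genes (0.0% by edgeR, with 870 genes at an unadjusted p under 0.05 and 8 by DESeq2). The step from 0.1 to 0.5 µM called 11.4% of genes, 2.98% higher and 8.47% lower. In FL cultures edgeR called none of the 5 at 0.05 µM, against 2.9% of all genes (1.62% higher and 1.28% lower), with 3 of the 5 at an unadjusted p under 0.05. With the culture number as a block 2 of 5 were called, Jag1 and Notch2, against 6.88% of genes. DESeq2 called the same 2 without the block (adjusted p = 0.0004789 and 0.01149), against 1526 of 15961 genes. The edgeR model of all 24 libraries, which takes a smaller spread from the GM cultures, called 4 of the 5, against 2721 of 17262 genes. These were Jag1 (adjusted p = 0.0002918), Notch1 (0.04125), Notch2 (0.001076) and Rbpj (0.01039).

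**Figure D2:**
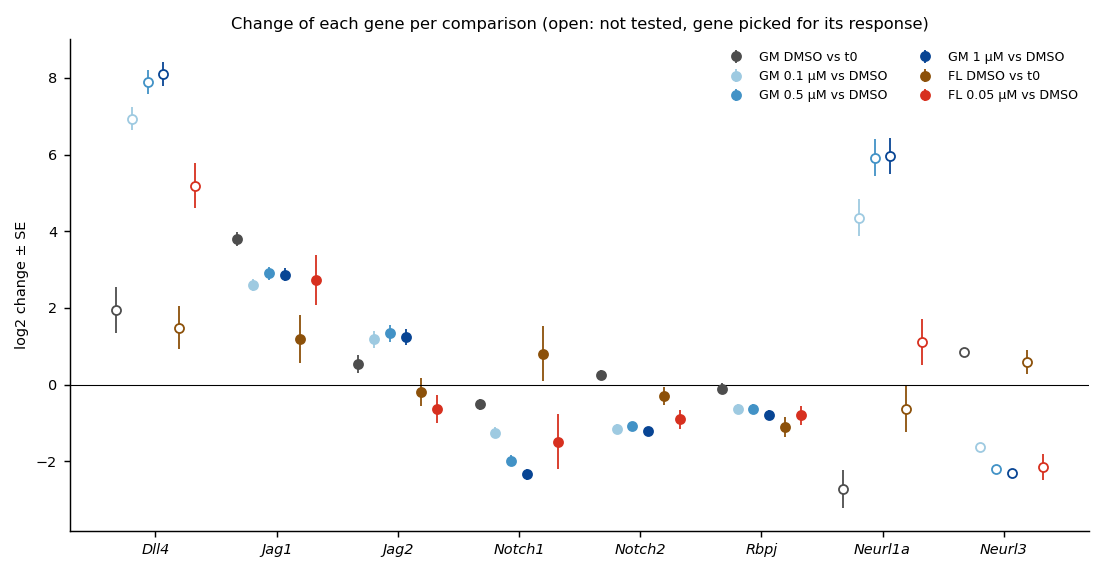
Fitted log2 change (± SE) of each gene in 6 comparisons, GM cultures in grey and blue and FL cultures in brown and red; open symbols are the 3 genes picked for their response. Dll4 reaches 8.11 at 1 µM, and Notch1, Notch2, Rbpj and Neurl3 lie below 0 in every AZD5582 comparison.

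Over 24 h in DMSO, where time in culture and solvent change together, Jag1 rose and Notch1 fell in GM cultures, while Jag2 (0.54 ± 0.23, adjusted p = 0.06007), Notch2 (0.26 ± 0.11, adjusted p = 0.05697) and Rbpj (-0.11 ± 0.14, adjusted p = 0.5594) missed the threshold. In that comparison 47.5% of genes were called, 27.2% higher and 20.3% lower. In FL cultures Rbpj was the only one of the 5 called, against 10.1% of genes (4.96% higher and 5.18% lower), or 19.5% with the culture number as a block. With the compared groups alone Rbpj was not called (adjusted p = 0.05684). In the model of all 24 libraries Jag1 was called as well (adjusted p = 0.04192), against 5307 of 17262 genes. Notch1 there differed by 0.81 ± 0.71 (adjusted p = 0.4769), and by 1.15 ± 0.27 in cultures 94 and 95 alone (adjusted p = 0.03664). Jag2 (-0.19, adjusted p = 0.768) and Notch2 (-0.29, adjusted p = 0.4364) missed the threshold, and Neurl3 differed by 0.59 ± 0.32 in FL and 0.86 ± 0.09 in GM cultures, untested. The change over 24 h was tested between the culture types in a model of all 24 libraries, which called 4.84% of genes, 0.881% higher and 3.96% lower. The FL change minus the GM change was -2.61 ± 0.62 for Jag1 (adjusted p = 0.01653) and -1.0 ± 0.29 for Rbpj (adjusted p = 0.04827). Without the filter on low counts neither was called (Jag1 -2.58, adjusted p = 0.0614; Rbpj -0.93, adjusted p = 0.07838). The Rbpj call was lost on leaving out any single library of the 12 except the FL t0 library of culture 94 and the FL DMSO library of culture 95 (adjusted p from 0.05476 to 0.1409). Without the FL DMSO library of culture 91 the Notch1 difference, 1.31 ± 0.67 with all libraries, was 1.79 and called (adjusted p = 0.02626). A block of culture number in FL and replicate number in GM cultures called 9.76% of genes. The Jag2 difference of -0.85 ± 0.23 was then called as well (adjusted p = 0.02397). Whether GM libraries of the same replicate number are truly paired is not known.

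Before treatment 6 of the 8 genes differed between FL and GM cultures, which differ in FLT3L, in day and in the cultures themselves, and these cannot be told apart. Of 17262 genes, 40.9% were called, 23.4% higher and 17.5% lower in FL cultures. Higher in FL cultures were Jag2, Jag1 (2.78 ± 0.46, adjusted p = 6.114e-05), Neurl1a (3.23 ± 0.56, adjusted p = 9.394e-05), Dll4 (1.93 ± 0.69, adjusted p = 0.03121) and Neurl3 (0.58 ± 0.21, adjusted p = 0.0348), and lower was Notch1. Notch2 (0.11 ± 0.17, adjusted p = 0.6507) and Rbpj (0.18 ± 0.20, adjusted p = 0.5166) missed the threshold. The Dll4 value rests on 14 counts in GM and 52 in FL cultures. It was 3.94 without GM replicate 1, and not called without GM replicate 2 (adjusted p = 0.1236) or 3 (0.1202) or without FL culture 94 (0.1449) or 95 (0.05178). The Neurl3 call was lost without each of GM replicates 1, 2 and 3 and FL cultures 91 and 95 (adjusted p from 0.07444 to 0.1139). The summed level of 8 genes of type 1 conventional DCs was 2666 to 6281 CPM in FL and 1507 to 1622 in GM cultures at t0, and its part in these differences was not tested.

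The AZD5582 response was also set side by side between culture types at the nearest doses, 0.05 µM in FL and 0.1 µM in GM cultures, a comparison added after the data were seen in which the doses differ. It called 1.67% of genes (0.967% higher and 0.707% lower). With a block of culture number in FL and replicate number in GM cultures, a GM pairing that is not established, it called 4.28%. Of the 5 members tested, Jag2 was called: its FL response minus its GM response was -1.73 ± 0.42 on the log2 scale (adjusted p = 0.0379), and -1.67 ± 0.22 with the block (adjusted p = 0.0003423). Without the block this call was lost on leaving out any of the 6 GM libraries, the FL DMSO library of culture 91 or the FL AZD5582 library of culture 95 (adjusted p up to 0.0982). For Jag1 (0.19 ± 0.60), Notch1 (-0.17 ± 0.67), Notch2 (0.31 ± 0.24) and Rbpj (-0.09 ± 0.29) the difference of responses had adjusted p-values from 0.653 to 0.9556, which does not show that the responses were alike.

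To compare levels between genes, CPM was divided by exon length in kilobases. On this scale the 3 ligand genes summed to 8.68 to 12.05 in GM cultures with DMSO and to 72.7 to 103 at 1 µM, while the 2 receptor genes summed to 25.3 to 28.2 and 6.58 to 10.3. The ratio of summed ligand to summed receptor level averaged 0.036 at t0, 0.407 in DMSO, 6.19 at 0.1 µM, 8.90 at 0.5 µM and 10.2 at 1 µM. Receptor transcripts therefore outnumbered ligand transcripts in every untreated GM library and the reverse held in every treated one. In FL cultures the ratio averaged 0.714 at t0, 1.2 in DMSO (0.551 to 2.33) and 10.9 at 0.05 µM (5.005 to 16.9). Since Dll4 is among the ligands, this ratio is in part set by the choice of genes and has no test.

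Jag1 was the most abundant of the 3 ligand genes per length in every treated library, whereas at FL t0 Jag2 was higher per length than Jag1 in all 3 libraries (8.244 to 11.8 against 5.194 to 7.13 CPM per kilobase). At 1 µM in GM cultures Jag1 was 3.53 to 3.75 times the Dll4 level, against 113.4 to 206.6 times in DMSO. The DMSO ratios rest on 12, 30 and 16 Dll4 counts in replicates 1, 2 and 3. Dll4 made up a mean of 0.695% of the summed ligand level in DMSO and 12.7%, 18.8% and 21.3% at the 3 doses, and 9.18% in FL cultures at 0.05 µM. Notch2 exceeded Notch1 per length in every group, by 1.71 times on average at GM t0 and 6.33 times at 1 µM. Neurl3 exceeded Neurl1a by 1195 to 5680 times in GM DMSO libraries and by 5.97 to 10.2 times at 1 µM. The DMSO ratios rest on 7, 12 and 19 Neurl1a counts, so their size is uncertain.

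**Figure D3:**
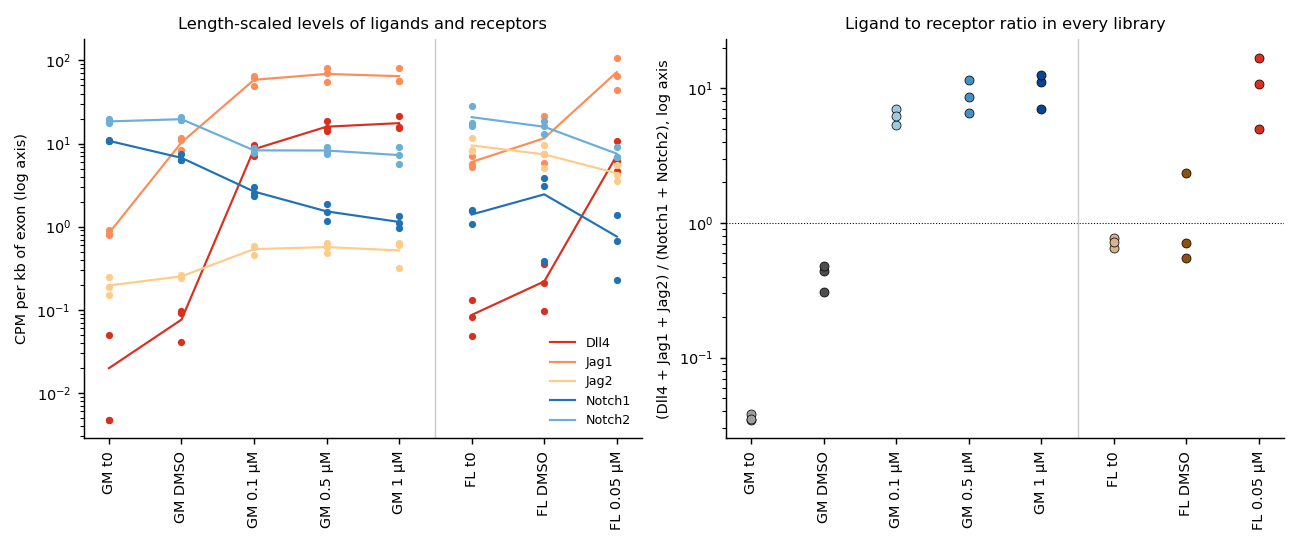
Left, CPM per kilobase of exon on a log axis for 3 ligand and 2 receptor genes, with points for libraries and lines through group means; right, summed ligand over summed receptor level in each library on a log axis, with a dotted line at a ratio of 1. All treated libraries lie above the dotted line, at 5.005 or higher, and all t0 libraries lie below it.

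The wider pathway was examined through 57 other genes in 8 roles, a list drawn up by role. Of these, 51 passed the filter on low counts in GM cultures; Dll3, Dlk1, Dlk2, Notch3, Hes5 and Ptcra did not. At 1 µM, 11 were higher and 27 lower than in DMSO, so 74.5% of the 51 were called against 55.1% of all genes, and their median log2 change was -0.34 against -0.005 for all genes. At 0.1 µM 8 were higher and 19 lower, and at 0.5 µM 10 and 26. Genes that were lower outnumbered those that were higher at each dose, whereas among all genes the shares were nearly equal (26.9% higher and 28.2% lower at 1 µM).

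Among the proteases that cut Notch receptors, 9 of 10 were lower at 1 µM and none higher, with a median of -0.96. Of all genes, 28.2% were lower and 26.9% higher. Adam17 (-1.25 ± 0.09) and Adam10 (-1.24 ± 0.10) encode the surface proteases. Aph1b (-1.39 ± 0.12) and Aph1c (-1.01 ± 0.11) encode near-identical gamma-secretase subunits between which reads may be split. Furin (-0.97 ± 0.09), the convertase that processes the receptor on its way to the surface, was lower as well. The 5 named here had adjusted p-values from 2.024e-09 to 6.268e-07. Adam17 fell further from 0.1 to 0.5 µM (-0.57 ± 0.09, adjusted p = 0.0003818).

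Of 5 other genes of the mindbomb and neuralized families, Mib2 (-1.40 ± 0.11) and Neurl2 (-2.60 ± 0.26) were lower and Neurl1b (0.89 ± 0.16) higher at 1 µM. Mib1, the mindbomb ligase known as the main one acting on Notch ligands in mammals, averaged 94.6 CPM in DMSO and 70.9 at 1 µM and was not called. The fringe genes Mfng (-2.91 ± 0.25) and Lfng (-1.02 ± 0.10) and, by less, Rfng (-0.44 ± 0.15, adjusted p = 0.01904) were lower, whereas Poglut1 (0.79 ± 0.10), which adds glucose to the receptor, was higher. Of 11 nuclear cofactors, 8 were lower and 1 higher, against 28.2% and 26.9% of all genes. The lower ones were led by Maml3 (-2.22 ± 0.27) and Maml2 (-1.19 ± 0.18), coactivators that bind RBPJ and Notch. Hdac1 (0.59 ± 0.07) was higher. Dll1, a further ligand gene, was at 1.73 CPM in DMSO and 0.265 at 1 µM (-2.45 ± 0.45, adjusted p = 0.0001708).

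Of 9 target genes tested, 6 were higher and 1 lower at 1 µM, against 26.9% and 28.2% of all genes. A scarce gene can pass the filter on its treated libraries alone, so the count of higher genes may in part be set by the filter. Of the other pathway genes, 47 passed with the t0 and DMSO libraries alone, against 51 with all GM libraries. Most of the classical target genes were scarce, however. Hes1 averaged 0.0527 CPM in DMSO and 0.132 at 1 µM and was not called, and Hey1 averaged 1.06 and 0.805 CPM and was not called. Hes7 (2.19 ± 0.41), Hey2 (2.58 ± 0.54) and Heyl (2.91 ± 0.81) were higher, at levels of 0.653, 0.527 and 0.632 CPM at 1 µM. Dtx1 (2.09 ± 0.53, adjusted p = 0.002819) and Nrarp (0.87 ± 0.36, adjusted p = 0.04989) were higher too. Esam, a surface molecule of Notch2-dependent DCs that endothelium also makes, was higher at 14 CPM against 4.78 (1.78 ± 0.24, adjusted p = 5.932e-06). Of the 12 endothelial marker genes, Sox17 was at 0 in all groups and Cdh5, Tek, Tie1 and Emcn averaged under 1 CPM in every group. Others on the list were expressed: Pecam1 averaged 16.3 CPM at GM t0, 5.57 in GM DMSO and 1.62 at 1 µM, and 58.8, 42.5 and 21.1 in the FL groups, while Kdr (5.87, 2.43 and 0.731 CPM) and Flt1 (10.1, 1.51 and 0.144 CPM) had lower means at 1 µM than in GM DMSO or at t0. The list's sum, which includes Esam, was 11.85 to 17.95 CPM in DMSO and 14.95 to 21.8 at 1 µM, and its part was not tested. Myc, a target with many other inputs, was lower (-1.51 ± 0.13, adjusted p = 2.314e-08).

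**Figure D4:**
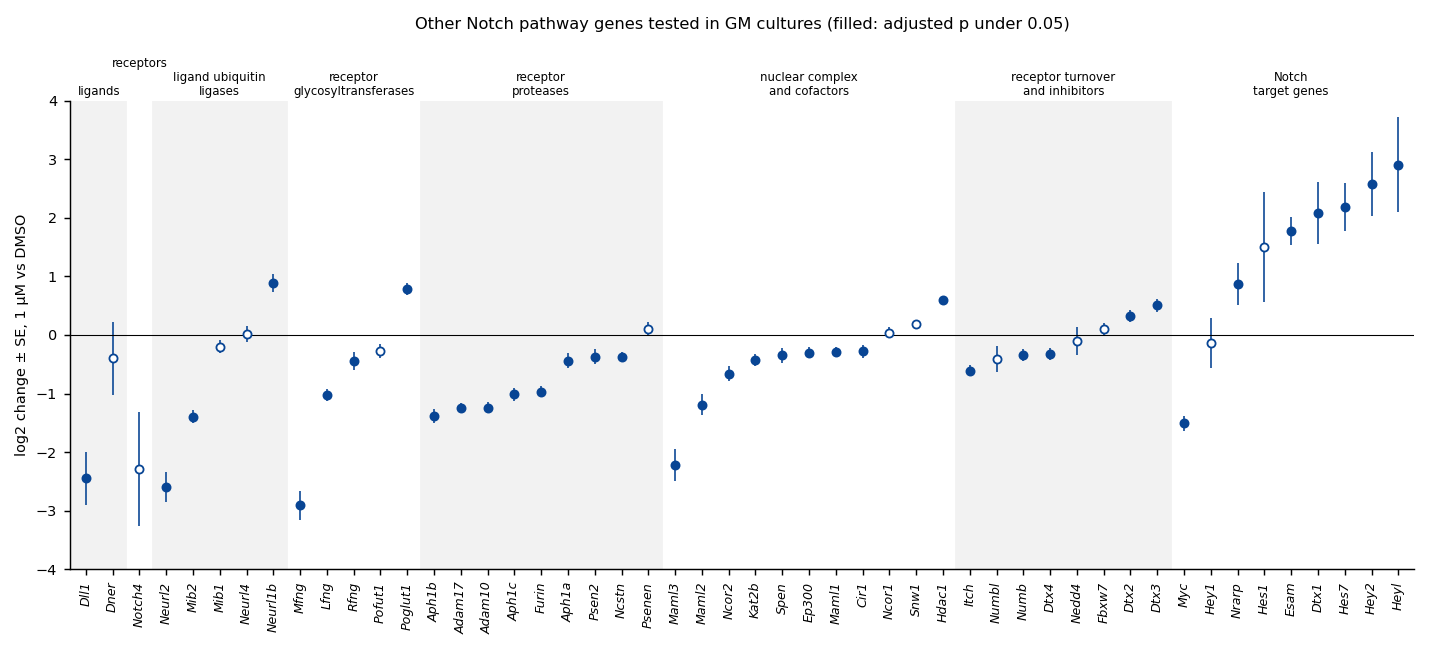
Log2 change (± SE) at 1 µM against DMSO in GM cultures for 50 of the 51 other pathway genes that were tested, grouped by role and ordered by size; filled symbols are genes with an adjusted p under 0.05. In the protease group 8 of the 9 symbols plotted are filled and below 0, while in the target group 6 filled symbols lie above 0 and Myc below.

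Over 24 h in DMSO in GM cultures, 21 of the 51 other pathway genes were higher and 9 lower than at t0 (41.2% and 17.6%), against 27.2% and 20.3% of all genes. Poglut1 (2.10 ± 0.11), Esam (4.17 ± 0.32) and Dll1 (2.03) rose, and Furin (-1.29) and Myc (-1.60) fell.

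In FL cultures at 0.05 µM, 4 of 51 other pathway genes were called, 1 higher and 3 lower (7.84%), against 2.9% of all genes (1.62% higher and 1.28% lower). With the culture number as a block 6 were called, 3 in each direction, against 6.88% of genes, and on leaving out single libraries the count ran from 0 to 7. Dll1 fell from 5.45 to 0.613 CPM (-2.93 ± 0.32, adjusted p = 0.007012), and Aph1c (-1.10 ± 0.20) and Dtx4 (-1.47 ± 0.31), a ligase linked to receptor turnover, were lower. Hes7 rose from 0.573 to 3.98 CPM (2.98 ± 0.60, adjusted p = 0.04015). In cultures 94 and 95 alone 9 of 52 were called, in a fit that called 2283 of 16214 genes. At t0, 8 of the 10 protease genes were lower in FL than in GM cultures and none higher, against 17.5% and 23.4% of all genes, among them Adam10 (-1.35 ± 0.13) and Adam17 (-1.19 ± 0.12), and Notch4 (4.87 ± 1.03) and Dll1 (3.87 ± 0.41) were higher.

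The summed monocyte and macrophage list was lower than in DMSO at every GM dose, as were Notch1, Notch2 and most protease genes. Its 12 genes all averaged at least 1 CPM in every group. The sum was 10860 to 11860 CPM at 0.1 µM and 5479 to 6002 at 0.5 µM, between the DMSO and 1 µM values given above. Over that step Notch1 and Adam17 fell too, but Notch2 did not (0.06 ± 0.11, adjusted p = 0.7828). Most of the sum was Lyz2, at 25910 CPM in GM DMSO and 3770 at 1 µM. Mertk alone of the list rose in FL cultures, from 10.4 CPM with DMSO to 28.9 with AZD5582. The sum of 10 neutrophil genes was 345.9 to 568.5 CPM in GM DMSO libraries and 6.56 to 11.7 at 1 µM, and in FL cultures 1753 to 11520 with DMSO and 144.2 to 3741 with AZD5582. The sum of the 8 genes of type 1 conventional DCs was 540.2 to 682.1 CPM in GM DMSO libraries and 89.9 to 96.5 at 1 µM. In FL cultures it was 2666 to 6281 at t0, 139.5 to 985.6 with DMSO and 74.95 to 205.2 with AZD5582. The part of these cells in the differences of Notch1, Notch2, Rbpj, Neurl3 and the proteases, in GM or FL cultures, was not tested. From t0 to DMSO in GM cultures, Notch1 fell while the macrophage sum went from 21720 to 26610 CPM up to 28430 to 34350. The genes of that list did not move together. Mean CPM fell for Mrc1 (546.8 to 220.3) and Fcgr1 (162.6 to 77.93) and rose for the others, with Lyz2 going from 20360 to 25910. The part of these cells in the Notch1 change over 24 h was not tested either.

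Across the 24 libraries, which share culture types and depth, the levels of the 8 genes were related as described by Pearson's r on log2(CPM + 1), with no test. Dll4 went with Jag1 (r = 0.88) and against Notch2 (-0.94), Neurl3 (-0.91) and Rbpj (-0.72). Notch2 went with Neurl3 (0.88) and Rbpj (0.84). For Neurl1a the strongest relations were with Notch1 (-0.61) and Jag2 (0.59). Among 9640 genes that reached a group mean of 10 CPM, the protein-coding genes most like Dll4 were Trim43b (r = 0.973), Gja1 (0.972), Rprm (0.972), Hspa1b (0.968) and Cd70 (0.967). Trim43b and Hspa1b have near-identical copies that may share reads, and with 0.1 in place of 1 added before the log only Trim43b of these 5 stayed in the list. Most like Neurl3 were Fmo5 (0.960), Tecpr1 (0.952) and Ceacam1 (0.952), and most like Neurl1a were Myef2 (0.935), E2f5 (0.931) and Cd80 (0.912). With 0.1 added instead, the Neurl3 list held the same genes and Cd80 left the Neurl1a list.

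Cd70, a TNF family ligand for T cells, averaged 3.62 CPM in GM cultures with DMSO and 43.6 at 1 µM, and 3.02 and 31.1 CPM in FL cultures with DMSO and 0.05 µM. Gja1, a gap junction protein, averaged 2.45 and 19.8 CPM in the GM and 2.23 and 13.02 in the FL groups. Cd80, a costimulatory ligand, averaged 50.04 and 260.8 CPM in the GM groups and 280.0 and 389.3 CPM in the FL groups, so like Neurl1a it was already expressed in FL cultures with DMSO. Fmo5, a monooxygenase, averaged 22.3 and 4.0 CPM in the GM and 31.9 and 8.35 CPM in the FL groups.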

How the data were processed

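Raw read counts per gene, with no normalisation, were used as the authors deposited them, in 24 tables of 55414 gene lines each. Per the submitters' processing notes, the tools were STAR 2.7.3a, HTSeq 0.12.4 and DESeq2 1.30.1, with the build GRCm39. The annotation release and strand setting, not given in the sources used here, are unknown. Lines naming no gene (10.98% to 16.42% of counts) stayed out of library sizes and tests. Symbols came from a table of gene names, which matched 52081 identifiers, and biotypes and exon lengths from GENCODE M21 (GRCm38). The 8 genes and all lists were chosen with earlier results of these data known.

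CPM was computed as counts scaled to 1000000 gene counts per library. Tests used edgeR 4.0.16 in R 4.3.3 (TMM scaling, filterByExpr, robust quasi-likelihood fit of group means, Benjamini-Hochberg adjustment over all genes tested, called under 0.05), in models of the 15 GM libraries (16152 genes), the 9 FL libraries (15961 genes) or all 24 (17262 genes) for comparisons between culture types. Fitted changes use TMM scaling and so differ from ratios of CPM. For Notch2 in GM cultures, for example, the fitted change at 1 µM was -1.22, with group means of 78.29 CPM at 1 µM and 211.8 in DMSO. Biological coefficients of variation were 0.146, 0.390 and 0.272. Pathway genes were named only if called, at most 6 per role with the smallest p, and genes outside that rule (Mib1, Hes1, Hey1, Nrarp, Gm14207 and Rbpj-ps3) were added after their values were seen. The number of genes named as most like Dll4 was 5, and 3 each for Neurl1a and Neurl3.

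FL libraries carry culture numbers, and same-numbered libraries deviated together from their group means (r = 0.121 to 0.643 over genes, all 9 pairs), so the culture number was taken as pairing them. The main FL fits, of group means, left this pairing out. It entered only the fits said to have the culture number as a block, which called 1098 genes at 0.05 µM against 463 without it. No 2 libraries of a group agreed within sampling noise. The fits were tested on simulated data. Alternatives were median-of-ratios scaling, no filter, DESeq2 1.42.0, other sets of libraries in the model, the replicate block and leaving out each library. Depth limits Dll4 and Neurl1a in untreated GM cultures, with 14 and 38 counts per group at the lowest. The values of 1 pathway gene are not reported here, though it is included in the counts.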

Additional observations from a re-analysis of the deposited data

Results flagged for a closer look

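Jag1 was flagged because its change over 24 h in DMSO differed between the culture types by -2.61 on the log2 scale (FL minus GM, interaction test). Without the filter on low counts the difference was -2.58 and not called (adjusted p = 0.0614). It rose in 3 of 3 GM libraries against every t0 library, and in FL cultures the t0 and DMSO ranges overlapped. Rbpj was flagged for a difference of -1.0 in the same test, with a fall in FL cultures from 351.2 CPM or higher at t0 to 221.1 or lower in DMSO. Jag2 was flagged for a difference of -1.73 between the FL response at 0.05 µM and the GM response at 0.1 µM. It was higher with AZD5582 in all GM libraries and lower in each of the 3 FL cultures, at doses that differ.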

How the results depend on the processing

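Under all alternatives run, values for single members were counted as unchanged in 1030 cases. There a tested gene kept its side of the threshold, or an untested value kept its sign and moved within its error. Tested genes called in neither fit could change sign within this count. For Notch2 between FL and GM cultures at t0, leaving out single libraries gave -0.22 to 0.27. In 41 cases a call was lost, in 21 a call was gained, in 17 an untested value moved by more than its error, and in 3 an untested sign changed: Neurl1a between 0.5 and 1 µM went from 0.05 to -0.03, -0.17 and -0.18 without 0.5 µM replicate 1, 0.5 µM replicate 3 or 1 µM replicate 2, and was 0.40 without 0.5 µM replicate 2.

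With all 24 libraries in the model, genes called numbered 3874 at 0.1 µM, 85 from 0.1 to 0.5 µM, 2721 at 0.05 µM and 5307 from t0 to DMSO in FL cultures. Other pathway genes called then numbered 1 from 0.1 to 0.5 µM, 19 from t0 to DMSO in GM cultures, 11 at 0.05 µM and 19 from t0 to DMSO in FL cultures. With the compared groups alone, 31 genes were called at 0.05 µM and 582 from t0 to DMSO in FL cultures, and other pathway genes numbered 8 from 0.1 to 0.5 µM, 0 at 0.05 µM and 2 from t0 to DMSO in FL cultures. DESeq2 called 8 genes from 0.5 to 1 µM, 1526 at 0.05 µM, 3503 from t0 to DMSO in FL cultures and 646 for the difference of responses, and other pathway genes numbered 8 from 0.1 to 0.5 µM, 9 from t0 to DMSO in FL cultures and 5 for the difference of responses. Without the filter, genes called numbered 77 from 0.5 to 1 µM, 503 for the difference over 24 h and 187 for the difference of responses, and other pathway genes 3 from t0 to DMSO in FL cultures and 3 for the difference over 24 h. Without the filter the Jag1 (adjusted p = 0.0614) and Rbpj (0.07838) differences over 24 h were not called, nor was the Rbpj difference with median-of-ratios scaling (0.07119).

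With the replicate block, genes called numbered 1098 at 0.05 µM, 3107 from t0 to DMSO in FL cultures, 1685 for the difference over 24 h and 738 for the difference of responses, and other pathway genes numbered 10, 11 and 9 in the last 3. In GM cultures same-numbered libraries correlated at 0.013 to 0.208, mostly below the FL values but overlapping them, so whether they are paired is not known. The block in GM cultures made Jag2 from t0 to DMSO a call (0.56, adjusted p = 0.02503). The block changed no other member's call beyond those given. No paired analysis was possible for FL against GM at t0 because cultures are nested in culture type. Cultures 94 and 95 alone, chosen after seeing the data, gave 2283 genes and 9 other pathway genes at 0.05 µM.

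Leaving out 1 library, genes called ranged from 1062 to 1737 from 0.1 to 0.5 µM, 0 to 1 from 0.5 to 1 µM, 17 to 1983 at 0.05 µM (highest without DMSO culture 91), 13 to 1454 from t0 to DMSO in FL cultures, 486 to 1869 for the difference over 24 h and 93 to 591 for the difference of responses. Other pathway genes ranged from 3 to 5, 0 to 0, 0 to 7, 0 to 3, 3 to 12 and 1 to 10. Causes were not tested.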
